A study of Mus musculus with 2 samples.

Results

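The genes described here are 9 members of the interleukin 12 and interleukin 15 families, chosen by symbol from the gene lists of both count matrices, 9 of 32285 genes listed. RNA was counted in CD45-selected cells from tumours of the mouse colon carcinoma line MC38, implanted in female C57BL/6 mice. The LC427 group received LC427, a compound given in the labels by code name alone, and the vehicle group received vehicle. Tumours of both groups were taken on day 14, digested, freed of dead cells and selected on beads for CD45, the surface protein of blood cells, before droplet capture with 10x 5′ chemistry. There was 1 library per group, and how many mice it pools is not stated in the labels. With a lone library on each side the groups cannot be tested against each other. Intervals in brackets are at 95% and account for counting error alone, and no difference has a replicate check.

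Cytokines of the interleukin 12 family are pairs of an alpha and a beta subunit. Il12a (p35) with Il12b (p40) makes IL-12, Il12b with Il23a makes IL-23, Il27 (p28) with Ebi3 makes IL-27, and Il12a with Ebi3 makes IL-35. Dendritic cells and macrophages are the main makers of IL-12 and IL-27. T and NK cells receive IL-12 through the chains Il12rb1 and Il12rb2 and answer through STAT4 with interferon gamma. IL-15 is held on the surface of myeloid cells by Il15ra and shown to neighbouring T and NK cells, which carry Il2rb and the common gamma chain Il2rg and signal through STAT5. The series title names LRBA and loss of CTLA4 as its subject, and the comparison asks how these cytokine and receptor genes stand in treated and untreated tumours.

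The LC427 library held 28732435 UMIs and 6008 cells, and the vehicle library 33711726 UMIs and 5025 cells. Median depth was 2353 UMIs a cell in LC427 and 3494 in vehicle, and this gap stands behind every share of cells below. The libraries shared 47 cell barcodes. Clusters were named from marker genes as monocyte/macrophage-like (3694 LC427 and 3247 vehicle cells), conventional DC-like (392 and 165), mature regulatory DC-like (158 and 131), plasmacytoid DC-like (59 and 43), CD8-like T (444 and 310), CD4/Treg-like T (101 and 94), NK-like (141 and 367) and tumour/stromal-like (380 and 212), a class that the CD45 selection should have removed. Cells with mixed T and myeloid markers (314 and 105), T cells with NK receptor genes (56 and 171) and unnamed cells (269 and 180) were not compared. The 9 genes were left out of the genes used for clustering. Levels are CPM, a gene's UMIs scaled to the UMIs of the whole class, and ratios are LC427 over vehicle. Empty droplets, barcodes of 10 to 100 UMIs, show how much of each gene was free in the suspension, and a class level at or under theirs is read as background.

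Il12b, Il15 and Il15ra were highest in mature regulatory DC-like cells, and Il27 in monocyte/macrophage-like cells. Il2rb was highest in NK-like cells, and so was Il12rb1, though with an interval that overlaps those of both T cell classes. Il12rb2 was spread over T, NK and mature regulatory DC-like cells, Ebi3 over myeloid and CD4/Treg-like cells, and Il12a was barely captured. RefSeq promoter windows of GRCm38.p6, 250 bases before to 50 after a gene's start, were at hand for 5 of the 9 genes. Shown are Il12b and Ebi3, beta subunits found in the same dendritic class, and Il12rb2, the receptor chain with the lower level in LC427 T cells. Il12b lies at chr11:44400063-44414033 on the plus strand, Ebi3 at chr17:55952640-55957022 on the plus strand and Il12rb2 at chr6:67291318-67376188 on the minus strand (GRCm38, GENCODE). In the same annotation the other genes lie with their strand Il12a at chr3:68690644-68698547 (plus), Il12rb1 at chr8:70808449-70821424 (plus), Il15 at chr8:82331632-82403222 (minus), Il15ra at chr2:11705290-11734317 (plus), Il27 at chr7:126589010-126594941 (minus) and Il2rb at chr15:78479256-78495271 (minus). The windows are chr11:44399813-44400112, chr17:55952373-55952672 and chr6:67376139-67376438, written 5′ to 3′ on the gene's own strand. Capitals mark letters that match 1 of 4 motifs searched on both strands.
Il12b: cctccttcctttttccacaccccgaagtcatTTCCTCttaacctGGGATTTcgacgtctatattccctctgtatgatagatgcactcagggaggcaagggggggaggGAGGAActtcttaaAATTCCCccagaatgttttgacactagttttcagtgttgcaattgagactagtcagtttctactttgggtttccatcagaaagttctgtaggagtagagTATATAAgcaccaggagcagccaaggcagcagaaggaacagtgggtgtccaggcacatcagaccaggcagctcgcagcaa
Ebi3: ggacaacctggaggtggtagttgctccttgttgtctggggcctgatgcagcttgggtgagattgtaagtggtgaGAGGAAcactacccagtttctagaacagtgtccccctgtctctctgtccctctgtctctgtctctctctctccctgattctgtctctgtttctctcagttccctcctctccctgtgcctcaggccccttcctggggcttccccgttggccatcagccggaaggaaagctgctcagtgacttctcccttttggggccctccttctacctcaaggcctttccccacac
Il12rb2: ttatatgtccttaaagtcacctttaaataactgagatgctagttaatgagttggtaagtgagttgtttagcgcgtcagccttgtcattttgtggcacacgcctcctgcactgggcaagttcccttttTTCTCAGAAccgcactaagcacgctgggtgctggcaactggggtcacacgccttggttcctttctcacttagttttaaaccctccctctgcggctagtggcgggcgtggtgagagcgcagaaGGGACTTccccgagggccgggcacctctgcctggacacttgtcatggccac
The motifs were a kappaB core-like GGGANTT, held by 16.5% of 32851 promoter windows, a PU.1 core-like GAGGAA (28.3%), a STAT site-like TTCNNNGAA (8.30%) and a TATA box-like TATANAA (11.3%). They were chosen after the windows had been seen, and a longer kappaB pattern tried first had no match in Il12b, though it matched in Ebi3 and Il12rb2. An interferon response element-like pattern, also tried first, matched in none of the windows shown. Il12b had 2 kappaB core-like matches, starting at positions -206 and -129 from the gene's start, 2 PU.1 core-like matches at -219 and -143, and a TATA box-like match at -30. Ebi3 had 1 PU.1 core-like match at -176, and Il12rb2 had a kappaB core-like match at -1 and a STAT site-like match at -123. Positions are counted from the RefSeq start of each window, which for Ebi3 lies upstream of the GENCODE start given above. A match describes these letters only.

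Among the cytokine subunits, Il12b was the most confined. Mature regulatory DC-like cells, migratory dendritic cells marked by Ccr7 and Fscn1, held 95.5% of its 729 UMIs. There it had 244 UMIs and 539 CPM in LC427 (474 to 612), against 452 UMIs and 817 CPM in vehicle (744 to 896), where empty droplets had 7.05 CPM in LC427 and 4.88 CPM in vehicle. The summed ratio was 0.660 (0.562 to 0.773). In that class 10.3% of 4857 measured genes were at least 1.5-fold lower and 18% at least 1.5-fold higher in LC427, so a ratio of this size is not rare. With every cell thinned to 1000 UMIs, which leaves 105 UMIs in LC427 and 87 in vehicle, the ratio was 1.00 (0.75 to 1.35). With all UMIs kept and cells weighted equally, as the mean of each cell's share of UMIs from Il12b, it was 0.77. Without the 10 cells of each library with most Il12b the ratio was 0.65 (0.49 to 0.85).

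Il12b was carried by few cells. In LC427 56 of 158 mature regulatory DC-like cells (35.4%) had a UMI of it, and in vehicle 64 of 131 (48.9%), with median depths of 2356 and 3210 UMIs. After thinning the shares were 22.8% (16.5 to 30.1) in LC427 and 29.0% (21.4 to 37.6) in vehicle, intervals that overlap. Monocyte/macrophage-like cells, which lay under empty droplets for Il12b, had a UMI in 0.0271% of thinned LC427 and 0.0308% of thinned vehicle cells, at median depths of 2348 and 3712 UMIs before thinning. The 10 richest cells held 63.9% of the class's Il12b UMIs in LC427 and 64.8% in vehicle, and the richest cell had 36 UMIs in LC427 and 86 in vehicle. Cells with 8 or more UMIs were 7 of 158 in LC427 and 15 of 131 in vehicle. UMIs of 1 cell are not independent, so the interval of the summed ratio is too narrow.

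**Figure D1:**
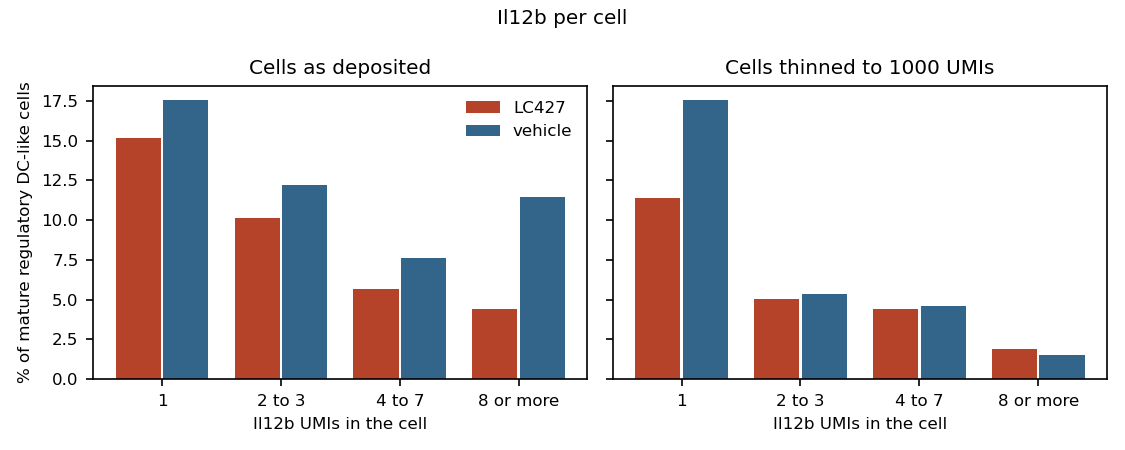
Share of mature regulatory DC-like cells (y, %) by their number of Il12b UMIs (x), in LC427 and vehicle, for cells as deposited (left) and thinned to 1000 UMIs (right); cells with none are not drawn. Before thinning, 4.43% of LC427 and 11.5% of vehicle cells had 8 or more UMIs, and after thinning 1.90% and 1.53%.

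Little Il12b lay outside that class. cDC1-like cells, the dendritic cells that present to CD8 T cells, had 2 UMIs in LC427 and 6 in vehicle, which are 10.6 and 22.7 CPM. cDC2-like cells had 0 UMIs in LC427 and 2 in vehicle. Monocyte/macrophage-like cells had 0.460 CPM in LC427 and 0.271 CPM in vehicle. In the authors' deposited table, with its own clusters, Il12b had a mean signal of 0.446 in its highest LC427 cluster and 0.00650 in the next. The authors' deposited table for vehicle had 1.41 and 0.0105. The 2 tables were scaled separately, so their levels are not compared.

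Il12a, the partner that makes Il12b into IL-12, had 4 UMIs in LC427 and 8 in vehicle over all cells. None lay in mature regulatory DC-like or conventional DC-like cells of either library. A count of 0 there allows up to 6.63 CPM in LC427 and 5.43 CPM in vehicle for the mature regulatory DC-like class, against 539 and 817 CPM of Il12b. Plasmacytoid DC-like cells held 1 UMI in LC427 and 4 in vehicle, which are 6.11 and 24.5 CPM. In LC427 CD4/Treg-like T cells also had 1 UMI (5.78 CPM), so these counts give no order of classes there. The leading genes of the plasmacytoid DC-like class were immunoglobulin genes beside Siglech and Ccr9. No cell had both Il12a and Il12b, which at this depth does not show that no cell made both.

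Il27 was found mainly in monocyte/macrophage-like cells, which held 84.3% of its 261 UMIs. The class had 117 UMIs and 10.8 CPM in LC427 (8.89 to 12.9), against 103 UMIs and 6.97 CPM in vehicle (5.69 to 8.45), above empty droplets at 4.37 and 2.17 CPM. The ratio was 1.54 (1.17 to 2.03), in a class where 11.6% of 11482 genes were at least 1.5-fold higher and 5.95% at least 1.5-fold lower. Macrophage clusters differed more than the libraries did. The cluster led by Nos2 and Acod1, genes of inflammatory macrophages, had 24.9 CPM of Il27 in LC427 and 20.4 CPM in vehicle, and the cluster led by the interferon-induced Rsad2 had 21.3 and 27.6 CPM. The Mmp12 and Pf4 rich cluster 3 had 2.70 and 2.76 CPM. Over the 4 clusters with at least 20 UMIs the ratio was 0.80 to 1.22, 2 above and 2 below 1, and none of these intervals left out 1. The Nos2 cluster had 962 LC427 and 344 vehicle cells, and with each cluster given the same weight in both libraries the ratio was 1.09.

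Ebi3, the beta subunit of IL-27, was broader than Il27. Monocyte/macrophage-like cells had 32.3 CPM in LC427 (29.0 to 35.8) and 34.2 CPM in vehicle (31.2 to 37.3), a ratio of 0.944 (0.822 to 1.08). Across 10 macrophage clusters it stayed between 24.2 and 44.9 CPM in LC427 and between 25.0 and 44.7 CPM in vehicle, a much flatter spread than that of Il27. Mature regulatory DC-like cells had 75.2 CPM in LC427 and 52.4 CPM in vehicle, a ratio of 1.43 (0.847 to 2.44). Ebi3 is known as a subunit of IL-35 in regulatory T cells. CD4/Treg-like T cells had 104 CPM in LC427 and 68.4 CPM in vehicle, from 18 and 16 UMIs, a ratio of 1.52 (0.732 to 3.19). Their sub-cluster with Foxp3 among its leading genes had 95.3 CPM in LC427 and 44.8 CPM in vehicle, from 13 and 7 UMIs. The sub-cluster led by Il13 had 137 and 116 CPM, from 5 and 9 UMIs. The mixed T and myeloid cells set aside above, led by Tnfrsf4 and Icos, had 27.6 CPM in LC427 and 46.2 CPM in vehicle. NK-like cells had 0 UMIs in LC427 and 1 in vehicle. Both Il27 and Ebi3 were seen in 18 LC427 and 27 vehicle cells, 12.8% and 25.2% of the cells with Il27, against 7.64% and 10.6% of the cells without it. Cells with Il27 were deeper, at medians of 2584 UMIs in LC427 and 4569 in vehicle, against 2348 and 3471.5 in cells without it, and the part of depth in these shares was not tested. In mature regulatory DC-like cells Ebi3 was seen in 25.0% of LC427 and 21.9% of vehicle cells with Il12b, against 9.80% and 8.96% of cells without it, at median depths of 2525 and 3794 UMIs with Il12b and 2226 and 3065 without.

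**Figure D2:**
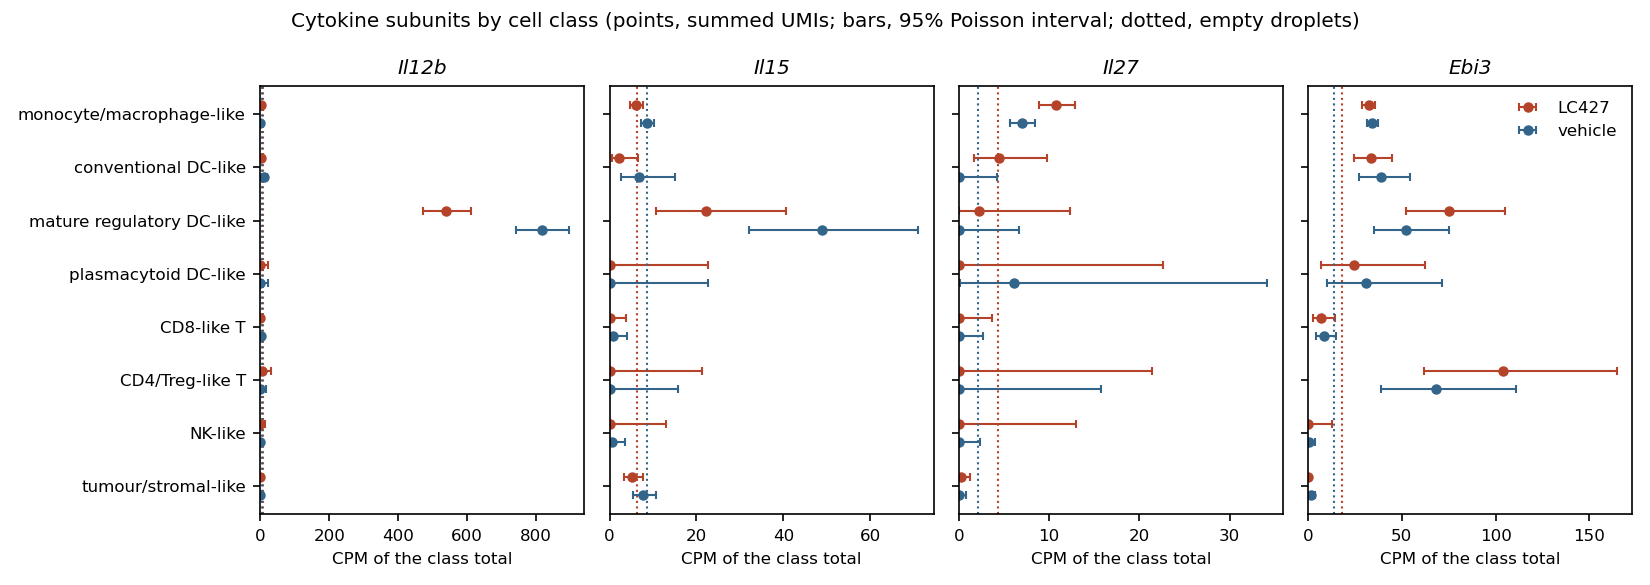
CPM of the class total (x) of Il12b, Il15, Il27 and Ebi3 in 8 cell classes (rows), with LC427 above vehicle in each row; points are summed UMIs, bars 95% Poisson intervals and dotted lines the level in empty droplets. Il12b stands out in mature regulatory DC-like cells, at 539 CPM in LC427 and 817 CPM in vehicle, while Ebi3 lies between 24.5 and 104 CPM in the 5 myeloid and CD4/Treg-like classes of LC427.

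**Figure D3:**
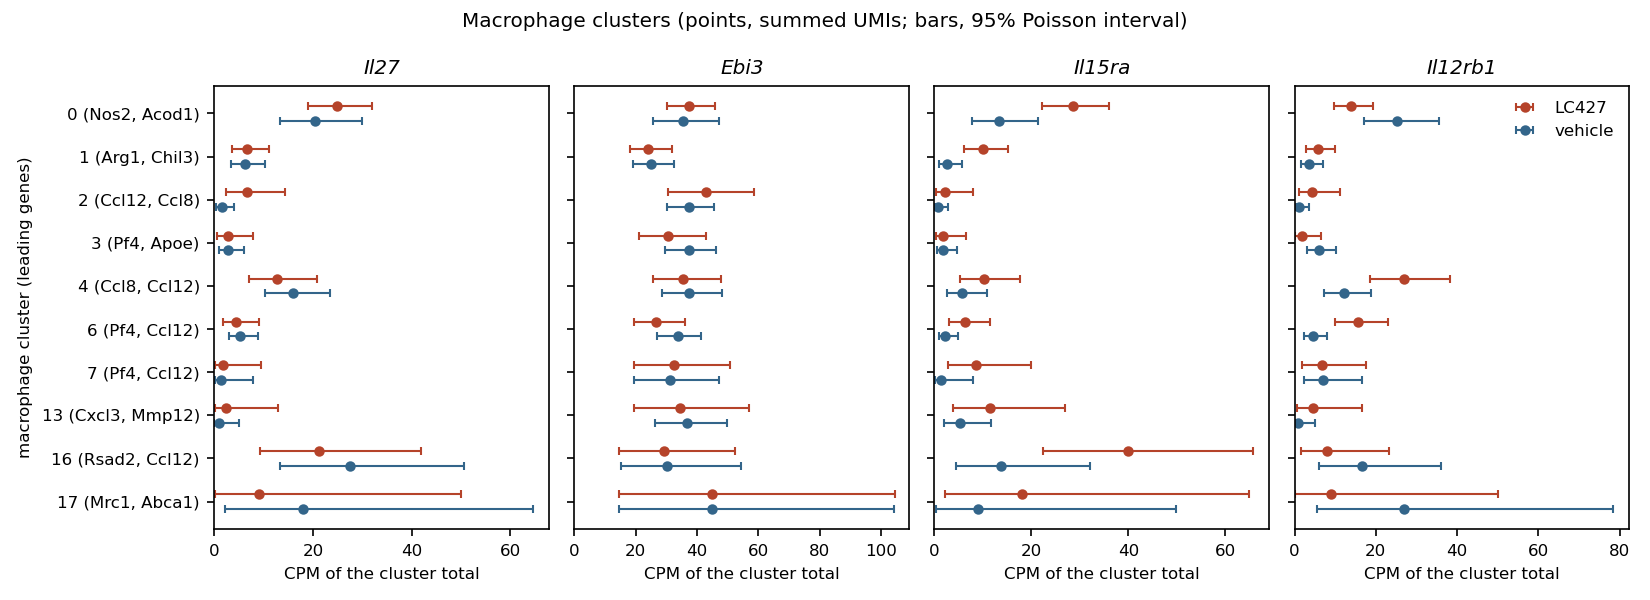
CPM of the cluster total (x) of Il27, Ebi3, Il15ra and Il12rb1 in 10 monocyte/macrophage-like clusters (rows, with their first leading genes), LC427 above vehicle; bars are 95% Poisson intervals. Il27 is highest in the Nos2 and Rsad2 clusters of both libraries, and Il15ra is higher in LC427 in 9 of 10 clusters.

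Il15 was lower in LC427 in its leading class. Mature regulatory DC-like cells had 10 UMIs and 22.1 CPM in LC427 (10.6 to 40.7), against 27 UMIs and 48.8 CPM in vehicle (32.2 to 71.0), a ratio of 0.453 (0.196 to 0.965). With cells thinned it was 0.46 (0.12 to 1.53). Monocyte/macrophage-like cells had 6.07 CPM in LC427 and 8.66 CPM in vehicle, a ratio of 0.701 (0.513 to 0.95), but empty droplets had 6.38 and 8.67 CPM, so the class as a whole is read as background. The Rsad2 cluster stood above it, at 42.5 CPM in LC427 and 46.9 CPM in vehicle, a ratio of 0.907 (0.429 to 1.91). CD8-like T, CD4/Treg-like T and NK-like cells together had 0 UMIs in LC427 and 2 in vehicle.

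Il15ra, which carries IL-15 on the cell surface, had its highest level in mature regulatory DC-like cells, with 42 UMIs and 92.9 CPM in LC427 (66.9 to 126) and 69 UMIs and 125 CPM in vehicle (97.1 to 158). The ratio was 0.744 (0.495 to 1.11). Monocyte/macrophage-like cells went the other way, with 144 UMIs and 13.2 CPM in LC427 (11.2 to 15.6) against 57 UMIs and 3.86 CPM in vehicle (2.92 to 5.0), a ratio of 3.43 (2.51 to 4.75). Thinned cells gave 3.28 (1.83 to 6.25), and equal cluster weights 2.38. Empty droplets moved in the same direction, at 13.1 CPM in LC427 and 5.42 CPM in vehicle. That is close to the class level in LC427 and above it in vehicle, so the class as a whole is read as background. The Nos2 cluster lay above empty droplets in both libraries, with 28.5 CPM in LC427 and 13.3 CPM in vehicle, a ratio of 2.14 (1.25 to 3.88). The Rsad2 cluster had 39.9 and 13.8 CPM, a ratio of 2.89 (0.999 to 10.2). The part that free RNA has in the class ratio was not tested. Conventional DC-like cells had 18 UMIs in LC427 and 4 in vehicle, a ratio of 2.92 (0.962 to 11.9), again at the level of empty droplets.

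Of the receptor chains, Il2rb, the signalling chain shared by IL-2 and IL-15, was at its highest in T and NK cells. It had 1282 CPM in LC427 NK-like cells (1153 to 1420) and 1162 CPM in vehicle (1108 to 1217), a ratio of 1.10 (0.983 to 1.24). CD8-like T cells had 826 CPM in LC427 and 910 CPM in vehicle, a ratio of 0.907 (0.830 to 0.991), and CD4/Treg-like T cells 885 and 821 CPM, a ratio of 1.08 (0.866 to 1.34). The NK-like value mixes subpopulations. In the sub-cluster led by Klrb1c, Xcl1 and Klra8, with 136 LC427 and 323 vehicle cells, the ratio was 0.851 (0.754 to 0.959). A further sub-cluster led by Gzmg and Gzmd had 5 LC427 and 44 vehicle cells, with 1084 CPM of Il2rb in LC427 from 17 UMIs and 695 CPM in vehicle. Over 13 other settings, 9 put the ratio of the class between 0.82 and 0.94. After thinning, 73.0% of LC427 (64.9 to 80.2) and 72.5% of vehicle NK-like cells (67.6 to 77.0) had an Il2rb UMI, and 57.0% and 56.8% of CD8-like T cells. As background, monocyte/macrophage-like cells had one in 0.514% and 0.277% of thinned cells, at 5.33 and 3.18 CPM against 74.9 and 78.3 CPM in empty droplets.

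Il12rb1, shared by the IL-12 and IL-23 receptors, had its highest level in NK-like cells, 70.4 CPM in LC427 (43.0 to 109) and 42.9 CPM in vehicle (33.1 to 54.5), from 20 and 66 UMIs. The ratio there was 1.64 (0.944 to 2.75). In the Klrb1c sub-cluster it was 1.44 (0.807 to 2.50), at 74.5 CPM in LC427 and 51.6 CPM in vehicle. The Gzmg and Gzmd sub-cluster had 0 UMIs of Il12rb1 in LC427 and 31.4 CPM in vehicle. CD8-like T cells had 43.3 CPM in LC427 and 29.4 CPM in vehicle, a ratio of 1.48 (0.940 to 2.32), and CD4/Treg-like T cells 63.6 and 38.5 CPM, a ratio of 1.65 (0.623 to 4.51). All 3 classes lay above empty droplets at 6.72 CPM in LC427 and 4.61 CPM in vehicle, and no ratio interval left out 1. The CPM intervals of these 3 classes overlapped in each library, so their order is not resolved. Monocyte/macrophage-like cells had 10.9 CPM in LC427 and 6.90 CPM in vehicle, a ratio of 1.59 (1.21 to 2.09). Of their 4 clusters with at least 20 UMIs, 3 were above 1 and 1 below, between 0.552 and 3.43. The Nos2 cluster had 13.9 CPM in LC427 and 25.1 CPM in vehicle, a ratio of 0.552 (0.330 to 0.924), while the Ccl8 and Adgre1 cluster had 27.0 and 12.1 CPM, a ratio of 2.24 (1.23 to 4.19). Equal cluster weights gave 1.20.

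Il12rb2, the chain that binds STAT4, was lower in LC427 in T cells. CD8-like T cells had 29 UMIs and 29.2 CPM in LC427 (19.6 to 42.0), against 81 UMIs and 58.0 CPM in vehicle (46.1 to 72.1), a ratio of 0.504 (0.318 to 0.779). Empty droplets went the opposite way, with 9.40 CPM in LC427 and 4.88 CPM in vehicle. Both CD8 sub-clusters were below 1, with 0.446 (0.227 to 0.835) in the Lag3 and Pdcd1 rich sub-cluster and 0.544 (0.276 to 1.01) in the Ccl1 and Nrgn rich sub-cluster. CD4/Treg-like T cells had 34.7 CPM in LC427 and 98.4 CPM in vehicle, a ratio of 0.353 (0.118 to 0.891) from 6 and 23 UMIs. Its sub-clusters were at 0.255 (0.0627 to 0.773) and 0.849 (0.0809 to 5.19). NK-like cells had 3 UMIs in LC427 and 34 in vehicle, a ratio of 0.479 (0.0940 to 1.52), and their Klrb1c sub-cluster 3 and 33 UMIs, a ratio of 0.295 (0.0579 to 0.941). The depth gap is large in these cells, 1751 UMIs in LC427 and 3567.5 in vehicle at the CD8-like median. After thinning, 2.93% of LC427 (1.57 to 4.95) and 4.52% of vehicle CD8-like T cells (2.49 to 7.46) had an Il12rb2 UMI, and the ratio was 0.65 (0.29 to 1.45), from 14 and 15 UMIs. Thinned monocyte/macrophage-like cells had one in 0.135% in LC427 and 0.123% in vehicle.

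Mature regulatory DC-like cells also carried Il12rb2, 44.2 CPM in LC427 (27.0 to 68.3) and 27.1 CPM in vehicle (15.2 to 44.7), a ratio of 1.63 (0.793 to 3.42), above empty droplets in both. In LC427 this was the highest level of any class, with an interval that overlaps those of CD4/Treg-like and CD8-like T cells, while in vehicle both T cell classes stood higher.

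**Figure D4:**
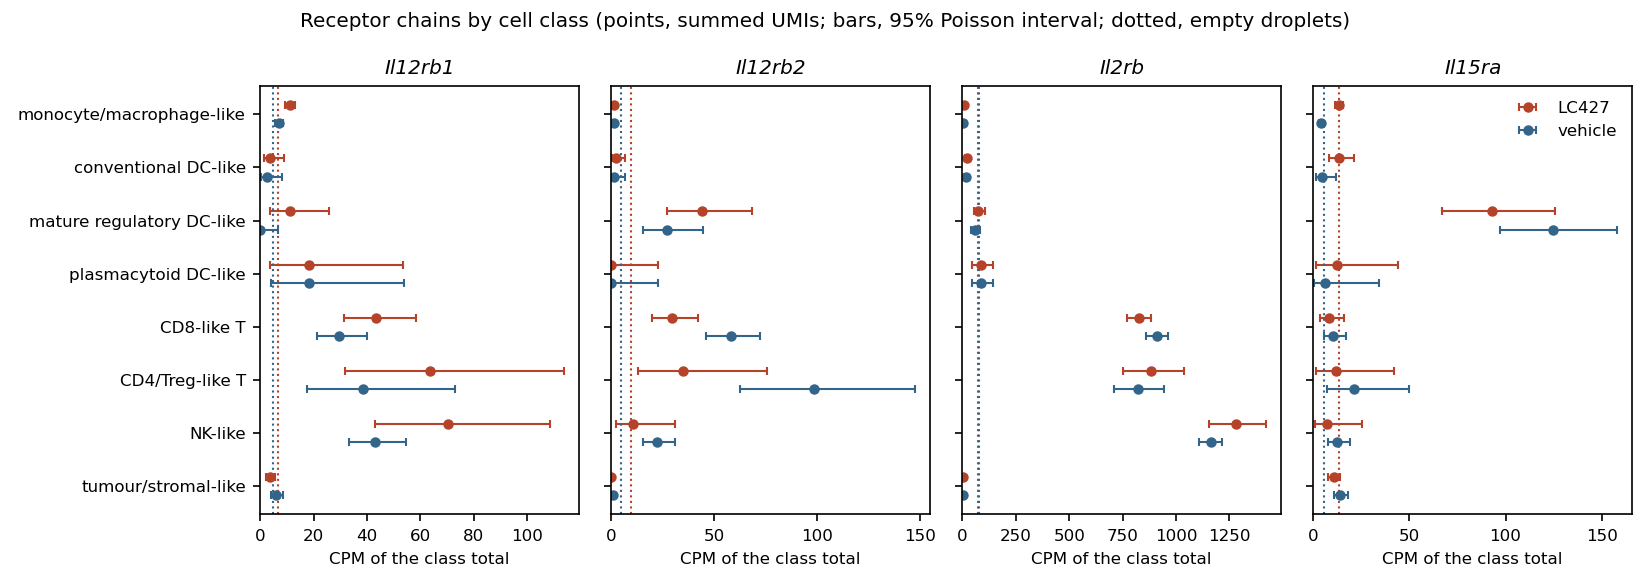
CPM of the class total (x) of Il12rb1, Il12rb2, Il2rb and Il15ra in 8 cell classes (rows), LC427 above vehicle; bars are 95% Poisson intervals and dotted lines empty droplets. Il2rb lies between 821 and 1282 CPM in the 3 lymphoid classes of both libraries, and Il12rb2 in CD8-like T cells is 29.2 CPM in LC427 and 58.0 CPM in vehicle.

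**Figure D5:**
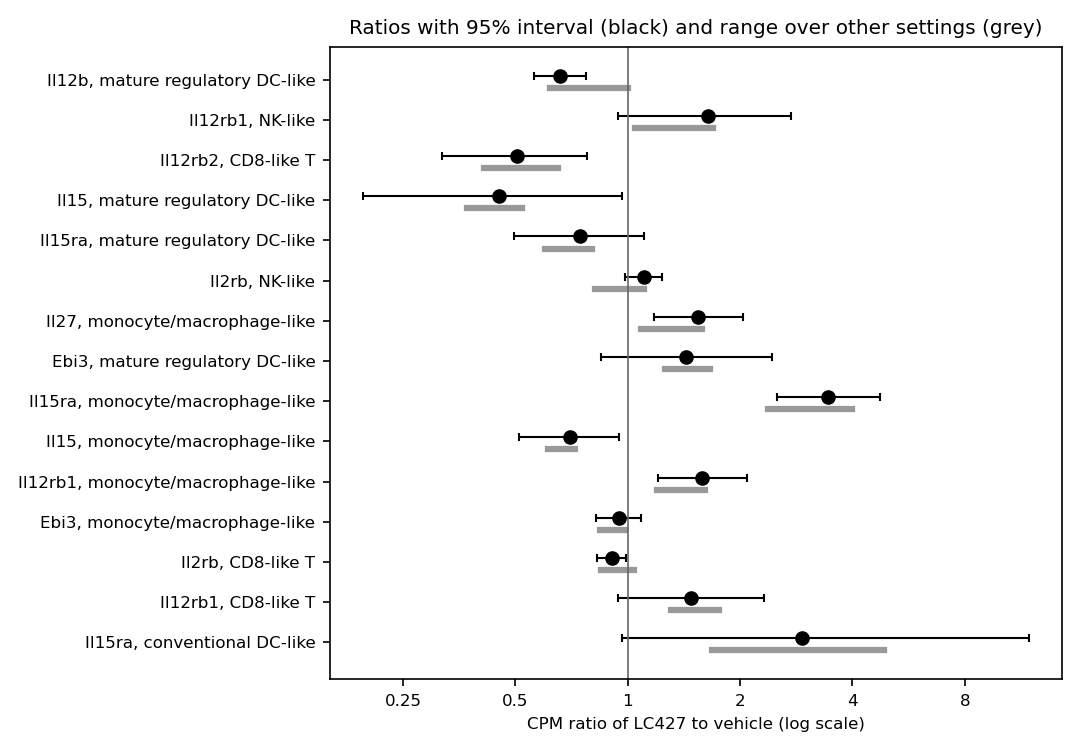
Ratio of LC427 to vehicle (x, log scale) of a gene in a class (rows), with its 95% counting interval in black and the range over the other settings tried in grey. Il12rb2 in CD8-like T cells stays between 0.41 and 0.65, Il15ra in monocyte/macrophage-like cells between 2.38 and 3.99, and Il12b reaches 1.00 when cells are thinned. None of the settings took out free RNA.

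The counts of members past 1.5-fold stand beside the share of all genes in each class. Counted are members with at least 20 UMIs in a class. In monocyte/macrophage-like cells 4 of 7 were at least 1.5-fold higher (Il12rb1, Il15ra, Il2rb and Il27), against 11.6% of all genes, and 0 lower, against 5.95%. Il2rb lay far under empty droplets, and Il15ra close to them in LC427 and under them in vehicle. With equal cluster weights Il27 and Il12rb1 had ratios of 1.09 and 1.20. The median log2 ratio of the 7 members, before such weighting, was 0.63, against 0.14 for all genes measured. In conventional DC-like cells 1 of 3 was higher, against 14.7% of all genes, and 0 were lower, against 8.18%. Mature regulatory DC-like cells had 1 of 6 higher (Il12rb2), against 18% of all genes, and 2 lower (Il12b and Il15), against 10.3%. In CD8-like T cells 0 of 4 were higher, against 14.3%, and 1 was lower, against 10.3%. NK-like cells had 1 of 4 higher, against 22.9%, and 2 lower, against 17.4%, and tumour/stromal-like cells 0 higher, against 8.86%, and 1 of 4 lower, against 12.7%.

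Among genes known to respond to IL-12 or IL-15, CD8-like T cells had 0 of 14 measured at least 1.5-fold higher in LC427, against 14.3% of all genes, and 2 lower, against 10.3%, which is near the share of all genes. Ifng, the main product of IL-12 signalling in these cells, had 265 CPM in LC427 and 415 CPM in vehicle, a ratio of 0.639 (0.550 to 0.741). Tbx21, the factor T-bet, had 41.3 and 78.8 CPM, a ratio of 0.525 (0.357 to 0.757). The median log2 ratio of the list was 0.00, against 0.06 for all genes of the class. NK-like cells had 1 of 14 higher, against 22.9% of all genes, and 6 lower, against 17.4%. Gzmb, a granzyme of killer cells, had 468 CPM in LC427 and 1236 CPM in vehicle, a ratio of 0.379 (0.315 to 0.452). Prf1, the pore protein perforin, had 743 and 1147 CPM, a ratio of 0.648 (0.559 to 0.747), and Klrg1 14.1 and 101 CPM, a ratio of 0.139 (0.0374 to 0.363). Myc had 56.3 and 20.1 CPM, a ratio of 2.80 (1.43 to 5.28). The Gzmg and Gzmd sub-cluster, almost wholly of vehicle, is part of this class. Its vehicle cells had a median of 10455.5 UMIs, against 2530 for all vehicle NK-like cells. In summed levels they therefore weigh more than their number. The NK-like ratios compare unlike mixtures of cells, and the part of this sub-cluster in them was not tested.

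In the JAK-STAT list Cish, a feedback inhibitor of STAT5 signalling, was lower in LC427 in conventional DC-like and mature regulatory DC-like cells. It was also lower in monocyte/macrophage-like cells, but there at about the level of empty droplets. Monocyte/macrophage-like cells had 25.2 CPM in LC427 and 40.6 CPM in vehicle, a ratio of 0.621 (0.536 to 0.717), conventional DC-like cells 40.9 and 66.5 CPM, a ratio of 0.615 (0.418 to 0.906), and mature regulatory DC-like cells 42.0 and 85.0 CPM, a ratio of 0.494 (0.274 to 0.858). Empty droplets had 28.2 CPM in LC427 and 39.6 CPM in vehicle, close to the monocyte/macrophage-like levels, which are read as background. CD8-like T cells had 119 and 120 CPM. The list as a whole had 0 to 1 of 14 genes at least 1.5-fold higher and 1 lower in each of these 4 classes. Of all genes, 11.6% to 18% were higher and 5.95% to 10.3% lower in these classes. NK-like cells had 3 of 14 higher (Stat5b, Socs2 and Ptpn2), against 22.9% of all genes, and 0 lower, against 17.4%. Tumour/stromal-like cells had 0 of 13 higher, against 8.86% of all genes, and 6 lower, against 12.7%. Cish was among these 6, at 3.44 CPM in LC427 and 5.68 CPM in vehicle, both under empty droplets. Its ratio there was 0.607 (0.303 to 1.18). Among the inducers of these cytokines in myeloid cells, conventional DC-like cells had 1 of 19 higher, against 14.7% of all genes, and 3 lower, against 8.18%, with Batf3, a factor needed by cDC1, at 78.1 CPM in LC427 and 142 CPM in vehicle (ratio 0.550, 0.420 to 0.719). That class held 47 cDC1-like of 392 cells in LC427 and 39 of 165 in vehicle. Of the partner chains and cytokines, conventional DC-like cells had 5 of 8 higher, against 14.7% of all genes, and 0 lower, against 8.18%. The 5 were Il6st, Il2ra, Il7r, Il18 and Il18rap. Mature regulatory DC-like cells had 1 of 6 higher and 1 lower, against 18% and 10.3%. Monocyte/macrophage-like cells had 2 of 12 higher and 1 lower, against 11.6% and 5.95%. CD8-like T cells had 0 of 8 either way, against 14.3% and 10.3%. Il7r was higher in conventional DC-like cells (ratio 1.87, 1.27 to 2.82) and in mature regulatory DC-like cells (1.65, 1.29 to 2.12). In the second class it had 340 CPM in LC427 and 206 CPM in vehicle.

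The genes whose levels followed each member most closely over 38 clusters and libraries, among 9796 genes, are a description of shared cell types, and the points share 2 libraries and their depth. Il12b was closest to Tmem150c (Pearson r 0.89), Il27 to Slc30a1 (0.88) and Fcgr4 (0.85), Ebi3 to Cd83 (0.89), Il12rb2 to Nabp1 (0.92), and Il2rb to Gm19585 and Trbc2 (0.97 each). Il15ra, Il15 and Il12rb1 had lower best values, 0.76, 0.80 and 0.72. Il27 and Ebi3, subunits of 1 cytokine, had r 0.42, and Il12rb1 with Il12rb2 0.47.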

How the data were processed

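Per the file headers, the authors deposited unfiltered matrices of UMI counts written by Cell Ranger 4, while Cell Ranger 3.0.1, Seurat 3 and GRCm38 (mm10) stand in the submitters' processing notes. The authors also deposited per library a table of mean count signal, log2 fold change and adjusted p-value for each of their clusters, of which a few means are quoted and the log2 values and p-values are not used. Barcode and gene lists are other deposited files, used as names.

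Barcodes with at least 1000 UMIs, 400 genes and at most 10% mitochondrial UMIs were cells. Scrublet (scanpy 1.11.5) called 0 doublets and was taken not to have worked, so the top scores, 0.8% per 1000 cells, were left out, 320 in LC427 and 220 in vehicle. Log-normalised counts of 2000 variable genes, scaled, gave 30 components, 20 neighbours and Leiden clusters (leidenalg 0.10.2, resolution 1). T and NK clusters were clustered again together, where the design named T clusters only. The rule that turns markers into names was written after the clusters were seen, and the members, lists and settings were chosen with earlier results of these data known. Named genes were all members and up to 5 genes each way per list past 1.5-fold with an interval leaving out 1. The design also named Il23a, Il6st, Il27ra, Il2ra, Il2rg, Il18 and Ifng wherever they had at least 20 UMIs in a class. Of these, levels are given here for Ifng in CD8-like T cells alone, also where others had 20 UMIs.

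UMIs were summed per class. Intervals are exact Poisson for CPM, exact conditional binomial for ratios and exact Clopper-Pearson for shares. Only the ratio intervals were tried on simulated data, drawn as independent Poisson counts. Such draws hold no clumping of UMIs within cells, so they cannot show whether the intervals are wide enough for it. All of these intervals cover counting error only. A count of 0 allows up to 3 counts. Settings tried were cell limits, doublets, resolution, clustering genes, libraries alone, thinning, totals, median scaling, marker-positive cells and means over cells. Leaving out the richest cells and equal cluster weights were chosen after seeing the data. RefSeq promoters and GENCODE vM21 are both GRCm38.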

Additional observations from a re-analysis of the deposited data

Results flagged for a closer look

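Il2rb was 1.68 times as high in LC427 as in vehicle in monocyte/macrophage-like cells and 0.907 times as high in CD8-like T cells, with counting intervals on opposite sides of 1. The difference between the classes was not tested, and the monocyte/macrophage-like levels of 5.33 CPM in LC427 and 3.18 CPM in vehicle lie under the 74.9 and 78.3 CPM of empty droplets.

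Il27 appeared in cells left unnamed, outside the classes compared, at 23.1 CPM in LC427 and 16.7 CPM in vehicle, from 12 and 8 UMIs, above the 4.37 and 2.17 CPM of empty droplets. Nearly all of these cells belong to a cluster led by the mast cell genes Tpsb2 and Mcpt2. Its leading genes also included Chil3 and S100a8, and 13 of 15 monocyte/macrophage markers were each seen in at least 10% of its cells. Which of its cells carried Il27 was not tested.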

How the results depend on the processing

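No paired analysis was possible because each group has 1 library, and no replicate could be left out. With cells thinned to 1000 UMIs, the Il12b ratio in mature regulatory DC-like cells was 1.00 (0.75 to 1.35) and the Il2rb ratio in CD8-like T cells 1.04, each on the other side of 1, and the intervals of Il12rb2 in CD8-like T cells, of Il15 in both classes, and of Il27 and Il12rb1 in monocyte/macrophage-like cells included 1. Thinning is 1 random draw, leaves fewer UMIs and weights cells equally; equal weights with all UMIs gave Il12b 0.77. In NK-like cells Il2rb was 0.85 with at least 500 UMIs, 0.90 with 2000, 0.86 with at most 5% mitochondrial UMIs, 0.85 and 0.86 at resolutions 0.5 and 2, 0.82 with all genes in the clustering, 0.94 with cells thinned, 0.87 as a mean over cells and 0.94 without the 10 richest cells; the cause was not tested. With equal cluster weights Il27, Il15ra and Il12rb1 in monocyte/macrophage-like cells had ratios of 1.09, 2.38 and 1.20. Il15ra there was 2.38 to 3.99 over 15 settings, and each of the 13 with an interval left out 1. None of these settings took out free RNA, so they do not bear on its part. Il15ra in empty droplets was also higher in LC427, at 13.1 CPM against 5.42 CPM in vehicle. Il12rb2 in CD8-like T cells was 0.41 to 0.65 over 14 settings, with 12 of 13 intervals leaving out 1, and Il15 in mature regulatory DC-like cells 0.37 to 0.52 over 13, with 10 of 12. Il12a had too few UMIs to read. NK-like results had no value with each library clustered alone, nor Il12a with thinned cells. Depth limits the shares of cells, since vehicle cells held more UMIs.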
